A study of Homo sapiens with 2 samples.

Results

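Axon guidance genes encode the ligands and receptors that steer cells and cell processes, and 70 of them were followed in A549 cells that overexpress MYOCD. They were picked out by symbol, by family membership, from the 56255 symbols of the expression table, with no threshold on their values: Eph receptors and ephrins, semaphorins with plexins and neuropilins, slits with robos, and netrins with the netrin receptors UNC5, DCC and NEO1. The 2 groups were A549 cells overexpressing MYOCD (MYOCD) and untreated wild-type A549 cells (WT), with 1 RNA-seq library each. A549 is an established line of human lung cancer cells with an epithelial origin, and both cultures were kept in serum-containing DMEM. Myocardin, the product of MYOCD, works by joining SRF, a DNA-binding factor, at the promoters of muscle and actin genes. The labels do not say how MYOCD was introduced, name no vector control and do not say whether the MYOCD cells were 1 clone or a pool. With 1 library per group there was no replicate error and no test, and every value comes from a single culture.

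Ephrins and Eph receptors signal between touching cells: ephrin-A proteins are held by a lipid anchor, ephrin-B proteins span the membrane, and the Eph receptors are receptor tyrosine kinases. Class 3 semaphorins are secreted and mostly act through a neuropilin that binds them and a plexin that carries the signal, while the other vertebrate semaphorins are membrane proteins that bind plexins directly. Slits are secreted ligands of the robo receptors, and netrins are laminin-related secreted proteins. Outside the nervous system these genes are known for roles in epithelial boundaries, blood vessel growth and the movement of tumour cells.

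The deposited values are RPKM, reads scaled to gene length and to library size, so levels can be set side by side across genes. MYOCD itself stood at 48.6 RPKM in the MYOCD library and 0.304 RPKM in the WT library. The low values of the table moved in steps that 1 read would make, by which 1 read was worth about 1.15 times as much RPKM in the MYOCD library as in the WT library, an approximate figure that would make MYOCD the shallower library. Of 6 epithelial markers all passed 1 RPKM, with sums of 3620 RPKM in MYOCD and 4205 RPKM in WT. Markers of other cells that use guidance genes were low: 1 of 8 endothelial markers reached 1 RPKM in a library (sums of 3.85 RPKM in MYOCD and 2.18 RPKM in WT, with CDH5, VWF, TEK and KDR at 0 in both), as did 2 of 8 fibroblast markers (16.2 and 5.75 RPKM, chiefly COL1A1, with DCN at 0 in both). Neural markers had 5 of 8 members past 1 RPKM, with sums of 119.9 RPKM in MYOCD and 104.6 RPKM in WT, of which TUBB3 held most, and STMN2 was at 0 in both. Of 7 blood cell markers 2 reached 1 RPKM, with sums of 26.8 RPKM in MYOCD and 20.9 RPKM in WT, and PTPRC and CD3E were at 0 in both. Of all these markers, 5 lay at or beyond 2-fold. RBFOX3 (3.49 RPKM in MYOCD and 14.2 RPKM in WT) and MAP2 (0.978 and 2.78 RPKM) of the neural list were lower, while the more abundant neural genes TUBB3 (96.4 and 76.4 RPKM) and SNAP25 (17 and 8.87 RPKM) had log2 changes of 0.33 and 0.90. COL1A1 (14.3 RPKM in MYOCD and 3.05 RPKM in WT), the endothelial gene ESAM (3.5 and 1.4 RPKM) and the epithelial gene EPCAM (2.57 and 0.889 RPKM) were higher. The part of these markers in the differences below was not tested. In bulk RNA, fewer cells with a transcript and less of it per cell cannot be told apart.

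Across the guidance genes, MYOCD cells held more RNA for the receptors EPHB2, NRP2 and ROBO1 and for the ephrins EFNB2 and EFNA4, and less for the secreted ligands SEMA3A and NTN4 and the receptor PLXNA3. These were the 8 members that differed by 2-fold or more, 5 higher and 3 lower, among the 39 with at least 1 RPKM in a library. A log2 change here is that of MYOCD over WT after 0.5 RPKM is added to each value, and 2-fold is a log2 change of 1 or more in either direction, a rule of size. By the same rule 11.8% of all 17350 genes past that filter differed, and 6.11% of the 12337 protein-coding ones, against 20.5% of the 39 members. In each direction, 5.42% of all genes and 3.02% of protein-coding genes were higher, and 6.35% and 3.10% were lower. With a filter of at least 5 RPKM fewer than these 39 members were counted. Of those, 3 were higher (EPHB2, NRP2 and ROBO1) and 3 lower (SEMA3A, NTN4 and PLXNA3). Under that filter 3.93% of all genes and 2.16% of protein-coding genes were higher, 4.46% and 2.10% lower, and 8.39% and 4.26% either. The median log2 change of the 39 members was 0.19, where that of all genes was -0.0021 and 8647 genes lay above 0 and 8703 below. Of the 39 members 22 lay above 0 and 17 below. Of the 39, 5 reached 1 RPKM in only 1 of the 2 libraries, so that a difference was built into their passing: EFNB2, SEMA6A and SEMA7A through MYOCD, and EPHA10 and PLXNB3 through WT.

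**Figure D1:**
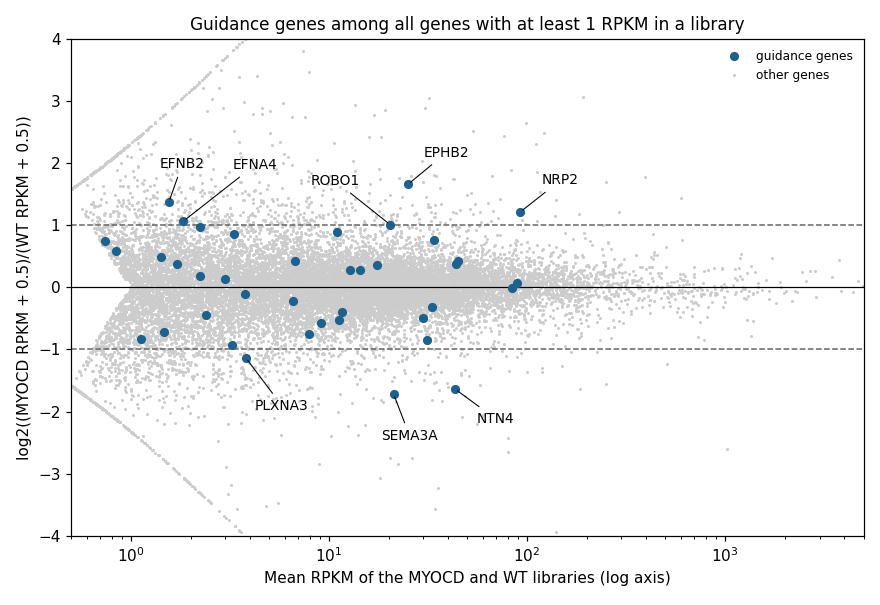
The log2 change of MYOCD over WT (vertical axis) is plotted against the mean RPKM of both libraries (horizontal log axis) for the 39 guidance genes past the filter (blue) and the other genes past it (grey), with 369 other genes outside the frame and dashed lines at 2-fold. The named genes are the 8 at or beyond 2-fold, of which NRP2, NTN4, EPHB2, SEMA3A and ROBO1 have means above 10 RPKM.

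The 35 receptor genes summed to 506 RPKM in MYOCD and 379.9 RPKM in WT, a ratio of 1.33. The 35 ligand genes summed to 268 RPKM in MYOCD and 334 RPKM in WT, a ratio of 0.802. Both sums follow a few abundant genes and do not describe every member. Among receptors the largest differences in RPKM were those of NRP2 (129.7 in MYOCD and 55.6 in WT) and EPHB2 (38.4 and 11.8). Among ligands they were those of NTN4 (20.8 in MYOCD and 65.7 in WT) and SEMA3A (9.63 and 32.7). Past the filter, 12 receptors lay above 0 and 5 below, with a median log2 change of 0.28, while 10 ligands lay above 0 and 12 below, with a median of -0.054. NRP2 held the highest level of the whole set in MYOCD and NRP1 the highest in WT. At least 10 RPKM was reached by 16 members in MYOCD and 20 in WT, while 33 members in MYOCD and 34 in WT stayed under 1 RPKM.

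**Figure D2:**
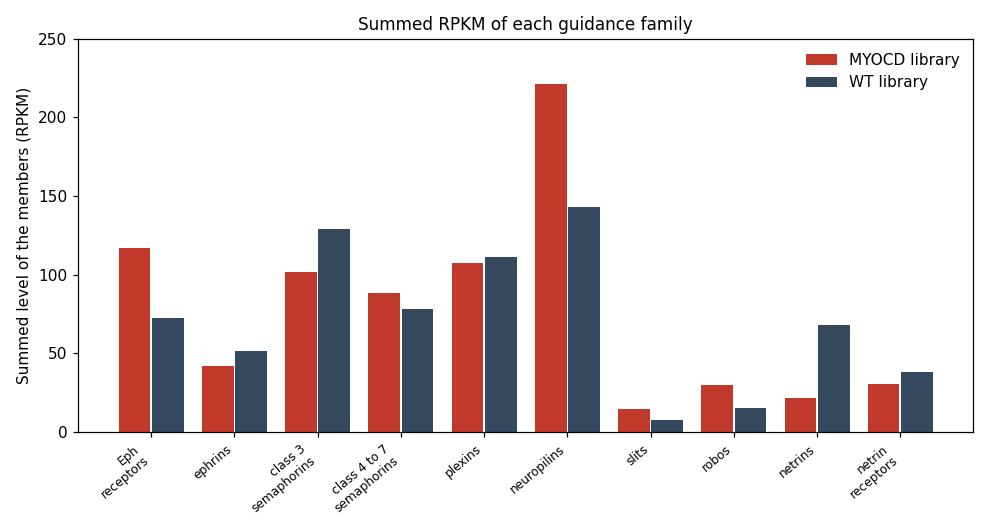
Bars give the summed RPKM of all members of each guidance family in the MYOCD library (red, left) and the WT library (dark, right), from a baseline of 0. The neuropilins (221 RPKM in MYOCD and 142.9 RPKM in WT) and the netrins (21.8 and 67.9 RPKM) stand furthest apart in opposite directions.

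The promoters of these genes were read for the SRF-binding CArG box, since myocardin acts with SRF. A promoter was the 250 bases before a RefSeq transcription start (GRCh38.p14), and 60 of the 70 members had an entry. SEMA3A and NRP1 were among those without one. For a gene with several starts, a box at any start was counted and the highest GC content was used. These values can therefore rise with the number of starts. The CArG box was found on either strand in 0 of the 60, where 1.59% of 15843 protein-coding genes held it. With so low a share, 0 of 60 is no result about the members. The GC box, GGGCGG on either strand, was found in 52 of the 60 (86.7%), against 62.1% of protein-coding genes. Past the filter it was found in 31 of 34 members (91.2%), against 74.5% of all genes. The median GC content was 71.6% for the 60 members, against 64% for protein-coding genes. Past the filter it was 73.2% for members, against 67.2% for all genes. A match in a window is a description of its letters. The windows of 5 members at or beyond 2-fold are shown because they hold both higher (EPHB2, EFNB2, ROBO1) and lower genes (NTN4, PLXNA3) and both GC-box and GC-box-free starts. GC boxes are in capitals, and where a gene has several starts the most upstream is given.
EPHB2 (chr1:22710588-22710837, plus strand): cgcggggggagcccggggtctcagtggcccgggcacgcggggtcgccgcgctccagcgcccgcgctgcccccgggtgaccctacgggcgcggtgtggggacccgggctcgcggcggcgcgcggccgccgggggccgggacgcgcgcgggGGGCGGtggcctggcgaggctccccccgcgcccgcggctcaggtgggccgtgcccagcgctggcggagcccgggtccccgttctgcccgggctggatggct
EFNB2 (chr13:106535663-106535912, minus strand): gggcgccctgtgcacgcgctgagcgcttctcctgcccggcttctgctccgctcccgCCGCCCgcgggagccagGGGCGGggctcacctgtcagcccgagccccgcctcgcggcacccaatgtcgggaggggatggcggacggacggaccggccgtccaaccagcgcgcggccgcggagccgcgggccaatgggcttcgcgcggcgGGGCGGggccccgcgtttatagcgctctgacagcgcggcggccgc
ROBO1 (chr3:79767999-79768248, minus strand): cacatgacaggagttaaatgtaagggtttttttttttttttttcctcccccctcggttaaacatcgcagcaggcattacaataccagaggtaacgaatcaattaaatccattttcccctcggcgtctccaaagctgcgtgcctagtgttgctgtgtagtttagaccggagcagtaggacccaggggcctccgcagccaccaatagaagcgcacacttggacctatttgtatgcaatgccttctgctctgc
NTN4 (chr12:95791156-95791405, minus strand): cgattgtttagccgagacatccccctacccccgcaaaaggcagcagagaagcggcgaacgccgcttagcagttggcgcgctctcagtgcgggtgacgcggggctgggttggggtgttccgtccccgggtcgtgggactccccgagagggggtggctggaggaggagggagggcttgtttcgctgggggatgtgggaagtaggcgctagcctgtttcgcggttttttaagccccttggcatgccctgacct
PLXNA3 (chrX:154458031-154458280, plus strand): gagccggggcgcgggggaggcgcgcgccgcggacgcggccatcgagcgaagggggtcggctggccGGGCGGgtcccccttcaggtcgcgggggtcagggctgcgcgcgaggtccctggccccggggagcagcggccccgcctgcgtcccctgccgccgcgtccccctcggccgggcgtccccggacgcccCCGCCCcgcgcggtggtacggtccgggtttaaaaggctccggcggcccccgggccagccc
EFNB2 holds 3 GC boxes, PLXNA3 2 and EPHB2 1 in these letters. ROBO1 holds 0 at both of its listed starts and has the lowest GC content of the 5 windows shown, 48% against 84.8% for EPHB2. NTN4 holds 0 at the start shown and 4 at its other start.

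Among the Eph receptors, EPHB2 stood out, and the family summed to 117 RPKM in MYOCD and 72.2 RPKM in WT. EPHB2 (ENSG00000133216), a receptor for ephrin-B ligands encoded on the plus strand of chromosome 1 (22710839 to 22921500, GRCh38 as for all gene positions here), stood at 38.4 RPKM in MYOCD and 11.8 RPKM in WT, a log2 change of 1.66. It had the highest log2 change of the 39 members, though with a pseudocount of 0.1 RPKM EFNB2 (1.79) stood above EPHB2 (1.69). Its level was above that of its relative EPHB4 in MYOCD and below it in WT, with a ratio of EPHB2 to EPHB4 of 1.95 in MYOCD and 0.775 in WT. EPHB4, the receptor best known as the partner of EFNB2 in veins, stood at 19.7 RPKM in MYOCD and 15.3 RPKM in WT. EPHA2, the leading Eph receptor of many epithelial cancers, stayed the most abundant of the family in both libraries, with 49.7 RPKM in MYOCD and 38.1 RPKM in WT (log2 change 0.38). Its share of the family sum was nevertheless smaller in MYOCD, 42.5% against 52.7% in WT, while the share of EPHB2 was 32.8% against 16.4%.

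The other Eph receptors past the filter were low. EPHA5, which binds ephrin-A ligands, stood at 4.41 RPKM in MYOCD and 2.22 RPKM in WT (log2 change 0.85), and EPHA4, which binds both classes of ephrin, at 1.75 and 1.11 RPKM. EPHA10, a receptor that lacks kinase activity, was the only Eph receptor past the filter below 0, with 0.992 RPKM in MYOCD and 1.95 RPKM in WT. The remaining 8 (EPHA1, EPHA3, EPHA6, EPHA7, EPHA8, EPHB1, EPHB3 and EPHB6) stayed at or under 0.721 RPKM. The 4 EPHA genes past the filter had a median of 0.43 and none at 2-fold. With 11.8% of all genes past the filter at 2-fold, none among 4 genes is no result about them.

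The ephrins divided between a higher and a lower set. EFNB2 (ENSG00000125266; chromosome 13, 106489731 to 106535662, minus strand), a transmembrane ligand of EPHB receptors, EPHB4 among them, stood at 2.47 RPKM in MYOCD and 0.644 RPKM in WT, a log2 change of 1.37. EFNA4 (ENSG00000243364; chromosome 1, 155063731 to 155069553, plus strand), a lipid-anchored ligand of EPHA receptors, stood at 2.67 RPKM in MYOCD and 1.01 RPKM in WT, a log2 change of 1.07. Both rest on few reads: by the approximate step of the low values, EFNB2 had about 185 reads in MYOCD and 56 in WT, and EFNA4 about 50 and 22. EFNB2 shares 1313 nt of exon, 26.2% of its model, with AL138689.2 on the opposite strand, which was not analysed here. EFNA5, the most abundant ephrin, stood at 24.8 RPKM in MYOCD and 34.9 RPKM in WT, and EFNA1, known as a ligand of EPHA2, at 5.79 and 10.1 RPKM (log2 change -0.76).

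EFNA1, EFNA3 and EFNA4 are neighbours on chromosome 1, with gaps of 9.32 kb from EFNA4 to EFNA3 and 39.9 kb from EFNA3 to EFNA1, and they did not differ alike. EFNA4 was higher in MYOCD by 2-fold, EFNA3 stood at 1.99 RPKM in MYOCD and 1.42 RPKM in WT, and EFNA1 lay below 0. EFNA3 and EFNA4 share 853 and 189 nt of exon with the gene model AL691442.1 on the same strand, which stood at 0.513 RPKM in MYOCD and was listed at 0 in WT. EFNB1 stood at 3.16 RPKM in MYOCD and 2.84 RPKM in WT. EFNA2 and EFNB3 stayed under 1 RPKM, EFNA2 at 0.783 RPKM in MYOCD and 0.157 RPKM in WT. The summed ephrin RNA was 41.8 RPKM in MYOCD and 51.4 RPKM in WT, in which EFNA5 held the largest share in both, so the sum was lower although 4 of the 6 ephrins past the filter lay above 0.

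**Figure D3:**
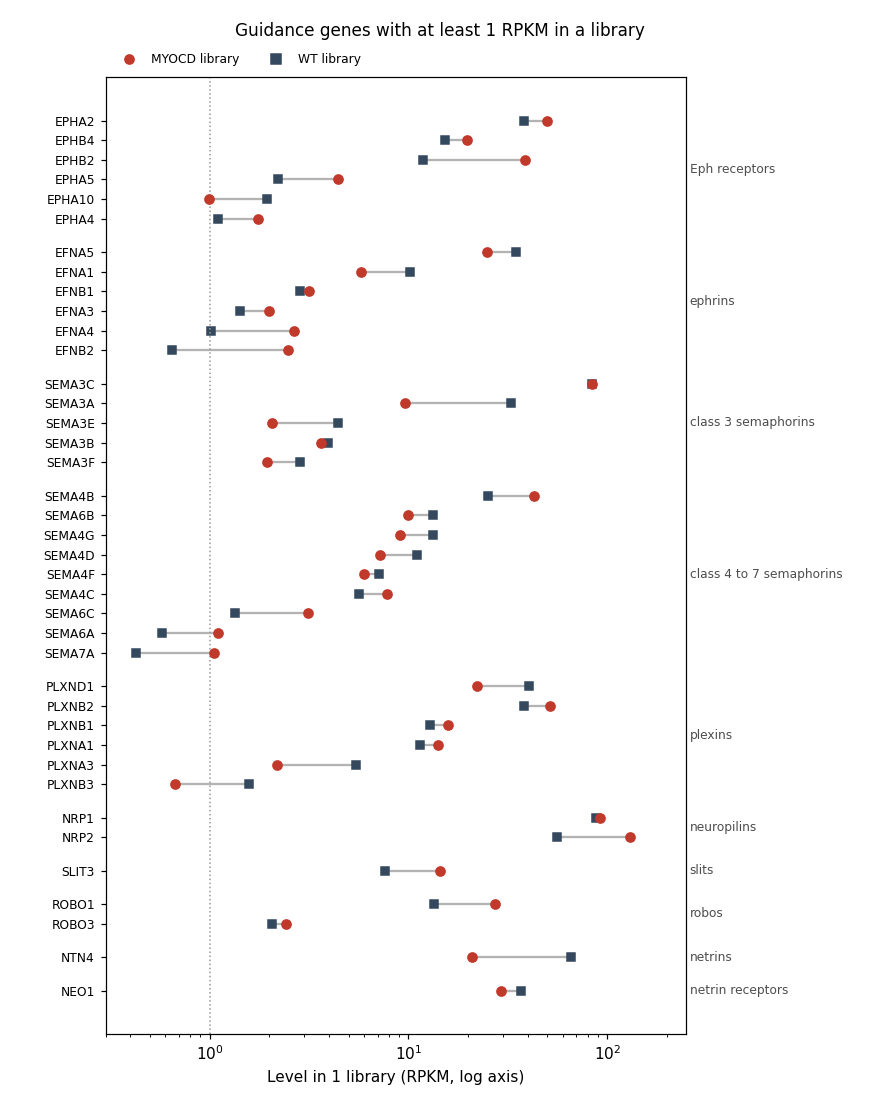
Each line joins the RPKM (log axis) of 1 guidance gene in the MYOCD library (red circle) and the WT library (dark square), by family, for the 39 genes with at least 1 RPKM (dotted line) in a library. The longest lines to the right end in red for EFNB2, EPHB2, EFNA4, SEMA7A and NRP2, and to the left for SEMA3A, NTN4 and PLXNA3.

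Of the class 3 semaphorins, the secreted ones, SEMA3A was lower in MYOCD by 2-fold. The other 4 past the filter were within 2-fold by the rule with the pseudocount. Without a pseudocount, the ratio of MYOCD to WT was 0.47 for SEMA3E. SEMA3A (ENSG00000075213; chromosome 7, 83955777 to 84492724, minus strand), a repellent ligand of NRP1 with class A plexins, stood at 9.63 RPKM in MYOCD and 32.7 RPKM in WT, a log2 change of -1.72. SEMA3E, which signals through PLXND1 without needing a neuropilin, stood at 2.07 RPKM in MYOCD and 4.41 RPKM in WT (log2 change -0.93). SEMA3C, the most abundant semaphorin, stood at 83.8 RPKM in MYOCD and 84.1 RPKM in WT. Its log2 change of -0.0048 took the other sign when both libraries were set to the same total (0.0067) or the steady reference genes to 0 (0.082). SEMA3C therefore made up 82.6% of the class 3 RNA in MYOCD and 65.2% in WT, and the ratio of SEMA3A to SEMA3C was 0.115 in MYOCD and 0.39 in WT.

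The other members of the class were low. SEMA3F, a ligand of NRP2, stood at 1.95 RPKM in MYOCD and 2.86 RPKM in WT, and SEMA3B at 3.61 and 3.92 RPKM. Both genes lie in the chromosome 3 region that is often deleted in lung cancer, 78.5 kb apart. SEMA3G stood at 0.0926 RPKM in MYOCD and 0.61 RPKM in WT, and SEMA3D at 0.28 and 0.23 RPKM, both below the filter. All 5 class 3 genes past the filter had log2 changes below 0, SEMA3C with the exceptions just given, with a median of -0.45. By the rule with the pseudocount, SEMA3A alone reached 2-fold. SEMA3E and SEMA3A are neighbours on chromosome 7 with a gap of 307 kb, and SEMA3D lies 503 kb beyond SEMA3A with a log2 change of 0.095.

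The 13 membrane semaphorins of classes 4 to 7 had 0 members at 2-fold, 5 above 0 and 4 below among the 9 past the filter. With 11.8% of all genes and 6.11% of protein-coding genes at 2-fold, 0 of 9 is no result about the group. Without a pseudocount, the ratios of MYOCD to WT were 2.32 for SEMA6C and 2.48 for SEMA7A. SEMA4B, the most abundant, stood at 42.9 RPKM in MYOCD and 25.1 RPKM in WT, a log2 change of 0.76, and held 48.4% of the group's RNA in MYOCD and 32.2% in WT. SEMA6C stood just inside the 2-fold limits, with 3.13 RPKM in MYOCD and 1.35 RPKM in WT (log2 change 0.97). SEMA4C, a ligand of PLXNB2, stood at 7.77 RPKM in MYOCD and 5.66 RPKM in WT. SEMA7A, which has a lipid anchor and binds PLXNC1, stood at 1.06 and 0.427 RPKM, and SEMA6A at 1.11 and 0.575 RPKM, both on the edge of the filter.

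Below 0 were SEMA4D, the ligand of PLXNB1, with 7.23 RPKM in MYOCD and 11.1 RPKM in WT (log2 change -0.58), and SEMA4G, with 9.07 and 13.3 RPKM. SEMA6B stood at 9.97 RPKM in MYOCD and 13.3 RPKM in WT, and SEMA4F at 6.01 and 7.1 RPKM. SEMA4G shares 1170 nt of exon, 22.3% of its model, with MRPL43 on the opposite strand, and the sources do not say whether strand was used in counting. SEMA5A and SEMA6D were listed at 0 in both libraries, and SEMA4A and SEMA5B stayed at or under 0.208 RPKM.

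The neuropilins were the most abundant guidance receptors, and their order differed between the libraries. NRP2 (ENSG00000118257; chromosome 2, 205681990 to 205798133, plus strand), which binds SEMA3F and also the lymphatic growth factor VEGF-C, stood at 129.7 RPKM in MYOCD and 55.6 RPKM in WT, a log2 change of 1.22. NRP1, which binds SEMA3A and VEGF-A, stood at 91.6 RPKM in MYOCD and 87.3 RPKM in WT, a log2 change of 0.069. The ratio of NRP2 to NRP1 was thus 1.42 in MYOCD and 0.637 in WT. NRP2 shares 147 nt of exon, 1.06% of its model, with the antisense gene AC007362.1, which stood at 35.3 RPKM in MYOCD and 10.1 RPKM in WT. NRP1 shares 561 nt with AL121748.2, which stood at 34.6 and 33.5 RPKM. How reads from the overlaps were assigned was not tested. The neuropilin ligands outside the semaphorins were VEGFA, with 20.5 RPKM in MYOCD and 19.6 RPKM in WT, and VEGFC, with 7.61 and 5.47 RPKM, while the VEGF receptor gene KDR was listed at 0 in both.

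The plexins, the signalling receptors of the semaphorins, had a level sum (107 RPKM in MYOCD and 111 RPKM in WT) made of members that differed in opposite directions. PLXNA3 (ENSG00000130827; chromosome X, 154458281 to 154477779, plus strand), a partner of the neuropilins in class 3 semaphorin signalling, stood at 2.19 RPKM in MYOCD and 5.42 RPKM in WT, a log2 change of -1.14. PLXND1, the receptor of SEMA3E, stood at 22.1 RPKM in MYOCD and 40.2 RPKM in WT, a log2 change of -0.85. PLXNB3 stood at 0.67 RPKM in MYOCD and 1.58 RPKM in WT, a ratio of 0.425 without a pseudocount. It shares 1432 nt of exon with SRPK3 on the same strand, which stood at 1.04 and 0.291 RPKM.

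PLXNB2, a receptor of class 4 semaphorins, stood at 51.7 RPKM in MYOCD and 38.2 RPKM in WT, and was the most abundant plexin in MYOCD, where PLXND1 was in WT. PLXNB1 stood at 15.7 RPKM in MYOCD and 12.9 RPKM in WT, and PLXNA1 at 14 and 11.5 RPKM, all 3 with log2 changes between 0.27 and 0.43. PLXNA2 (0.327 RPKM in MYOCD and 0.878 RPKM in WT), PLXNA4 and PLXNC1 did not reach 1 RPKM. The ligand and receptor pair SEMA3E and PLXND1 were thus both below 0, and the pair SEMA4C and PLXNB2 both above 0. These log2 changes were all under 2-fold by the rule with the pseudocount. Other pairs went both ways. EFNB2 with EPHB4 and SLIT3 with ROBO1 were also both above 0, and NTN4 with NEO1 both below 0. SEMA4D with PLXNB1, SEMA3F with NRP2, SEMA3A with NRP1 and EFNA1 with EPHA2 lay on opposite sides of 0.

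In the slit and robo system, 1 ligand and 1 receptor carried nearly all of the RNA, of which the receptor reached 2-fold and the ligand did not. ROBO1 (ENSG00000169855; chromosome 3, 78597240 to 79767815, minus strand), the widely expressed slit receptor, stood at 27.4 RPKM in MYOCD and 13.4 RPKM in WT, a log2 change of 1.01 that only just passed 2-fold. SLIT3, a secreted ligand of the robos, stood at 14.4 RPKM in MYOCD and 7.59 RPKM in WT, a log2 change of 0.89. The ratio of ROBO1 to SLIT3 was 1.9 in MYOCD and 1.76 in WT. ROBO3, known for the crossing of axons at the midline, stood at 2.41 RPKM in MYOCD and 2.05 RPKM in WT. SLIT1, SLIT2 and the endothelial receptor gene ROBO4 stayed at or under 0.176 RPKM, and ROBO2 was listed at 0 in both.

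**Figure D4:**
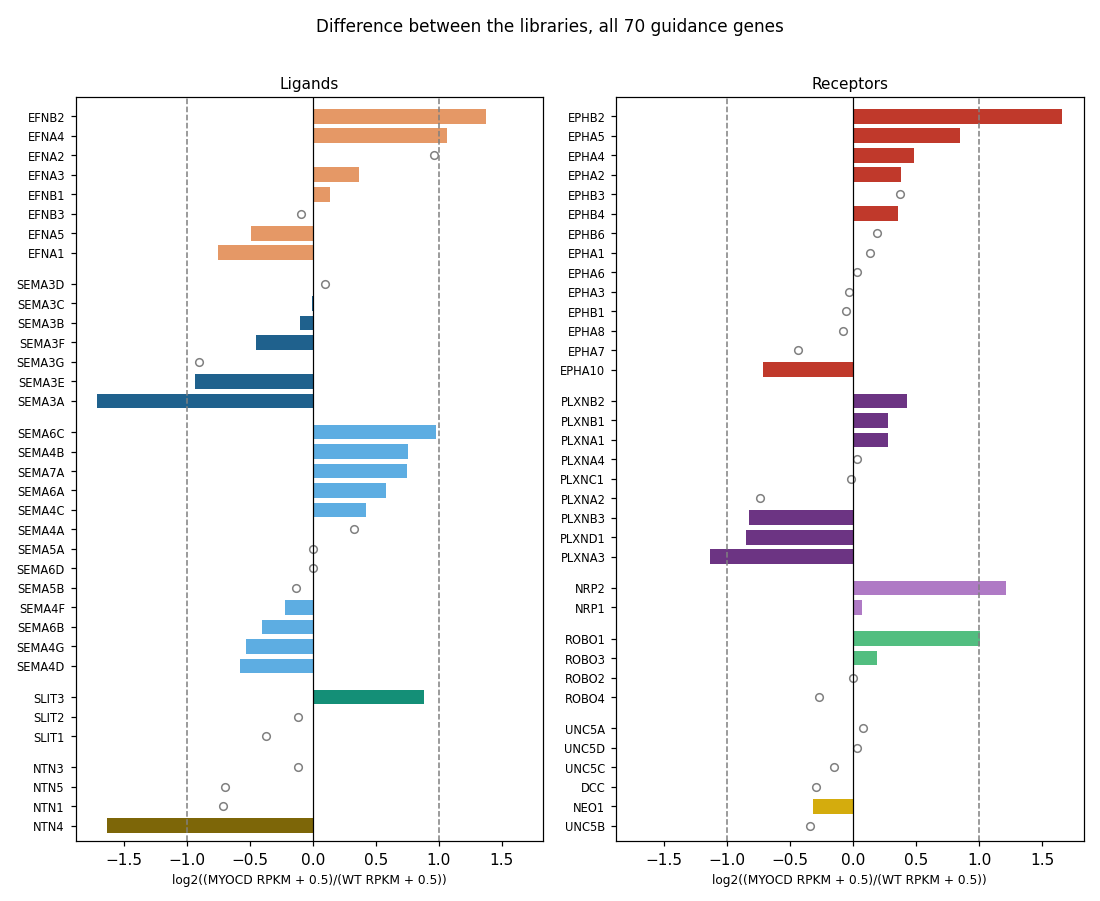
Bars give the log2 change of MYOCD over WT for the 39 guidance genes with at least 1 RPKM in a library, by family, with ligands on the left and receptors on the right, and open circles give the 31 genes below that filter. Bars cross the dashed 2-fold lines for EFNB2, EFNA4, EPHB2, NRP2 and ROBO1 to the right and for SEMA3A, NTN4 and PLXNA3 to the left.

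Of the netrins, NTN4 was the only one expressed at 1 RPKM or more. NTN4 (ENSG00000074527; chromosome 12, 95657807 to 95791152, minus strand), which encodes a basement membrane protein that binds laminins, stood at 20.8 RPKM in MYOCD and 65.7 RPKM in WT, a log2 change of -1.64. It held 95.6% of the netrin RNA in MYOCD and 96.8% in WT. The other netrins had lower values in MYOCD too, at levels under the filter: NTN1 0.376 RPKM in MYOCD and 0.938 RPKM in WT, NTN5 0.404 and 0.968 RPKM, and NTN3 0.183 and 0.24 RPKM. Among the receptors NEO1, which binds netrins and repulsive guidance molecules, stood at 29.4 RPKM in MYOCD and 36.7 RPKM in WT (log2 change -0.32). The classical netrin receptors were low: UNC5A, UNC5B, UNC5C, UNC5D and DCC stayed at or under 0.531 RPKM. The level of NTN4 was thus below that of NEO1 in MYOCD (ratio 0.709) and above it in WT (1.79).

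Genes that act beside these ligands and receptors were read from a fixed list of 30 co-receptors, other ligands and processing enzymes, of which 20 passed the filter. By the 2-fold rule 2 were higher and 2 lower, 4 of 20 genes where 11.8% of all genes and 6.11% of protein-coding genes were called, and the median log2 change was 0.071. NRCAM, an adhesion protein that pairs with neuropilins in semaphorin responses, stood at 94.8 RPKM in MYOCD and 40.2 RPKM in WT (log2 change 1.23). FLRT3 and FLRT2, adhesion proteins that bind UNC5 receptors, differed in opposite directions: FLRT3 stood at 1.92 RPKM in MYOCD and 8.27 RPKM in WT (log2 change -1.86), and FLRT2 at 2.2 and 0.826 RPKM (1.02). NTNG2, which encodes a lipid-anchored netrin-G, stood at 0.378 RPKM in MYOCD and 1.73 RPKM in WT (-1.34). FLRT2 reached 1 RPKM only in MYOCD and NTNG2 only in WT, so that a difference was built into their passing. The same held for 2566 of all genes past the filter. The most abundant were the integrin genes ITGB1, with 666 RPKM in MYOCD and 622 RPKM in WT, and ITGA3, with 253 and 234.7 RPKM, and the ephrin-cleaving protease gene ADAM10, with 155 and 189.7 RPKM.

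Downstream of the receptors, most signalling genes lay within 2-fold of their WT levels, as most genes did. Of 53 listed genes 48 passed the filter, with 1 higher and 1 lower by 2-fold, or 4.17%, near the 6.11% of protein-coding genes, and a median log2 change of 0.085. DPYSL3, which encodes a collapsin response mediator protein that links semaphorin signals to the cytoskeleton, stood at 5.18 RPKM in MYOCD and 1.06 RPKM in WT (log2 change 1.86). RAP1GAP, which encodes an inactivator of the GTPase Rap1, stood at 2.83 RPKM in MYOCD and 11.3 RPKM in WT (-1.82). The actin-severing cofilin gene CFL1 stood at 771 RPKM in MYOCD and 616 RPKM in WT, and the GTPase genes RHOA and RAC1 at 255 and 215.7 RPKM in MYOCD, against 275 and 240.02 RPKM in WT.

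EPHB2, NRP2, SEMA3A, NTN4, EFNB2 and PLXNA3 stayed beyond 2-fold under every pseudocount and scaling tried, with PLXNA3 reaching down to -1.01. Their direction could not change, since a pseudocount cannot turn a sign and the scalings moved log2 changes by far less than 1. The filters and the summing of rows could not move the log2 change of a member, only whether it was counted. EFNB2 was not counted with a filter of at least 5 RPKM. ROBO1 and EFNA4 passed under 2-fold with a pseudocount of 1 RPKM, at 0.98 and 0.87. SEMA6C passed to beyond 2-fold with a pseudocount of 0.1 RPKM or with the steady reference genes at 0.

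**Figure D5:**
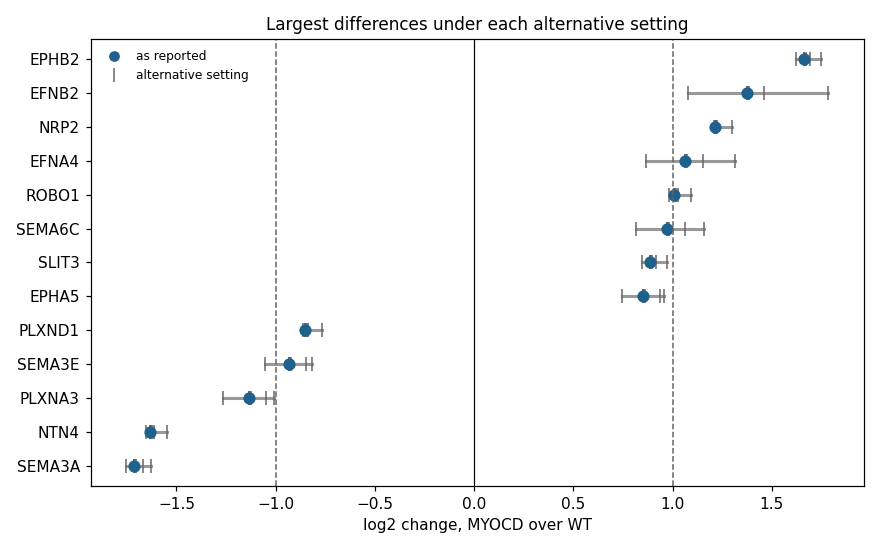
Circles give the reported log2 change of MYOCD over WT for the 13 guidance genes with log2 changes of at least 0.85 in either direction, and ticks on grey lines give the values under the alternative settings. ROBO1, EFNA4, SEMA6C and SEMA3E have ticks on both sides of a dashed 2-fold line, while EPHB2, NRP2, NTN4 and SEMA3A lie clear of it.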

How the data were processed

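Gene expression was measured by RNA-seq in 2 libraries of A549 cells, 1 of MYOCD-overexpressing and 1 of wild-type cells. The deposited table holds RPKM per gene, per the file headers, and a key at its head assigns a column to each group. The submitters' processing notes name Bowtie 0.12.2 and 2 builds, GRCh38.p12 and mm8, which is murine although all gene identifiers are human. Their roles, the counter, its annotation and strandedness are not stated in those notes.

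The table has 57979 rows and 56255 symbols. Of these, 248 stood on several rows, where the row with the highest mean RPKM was used, and no guidance gene was among them. Positions, model lengths (union of exons) and exon overlaps came from GENCODE 29 on GRCh38, which held all 70 guidance genes. Log2 changes used a pseudocount of 0.5 RPKM, which understates the change of low genes, and counts were over genes with at least 1 RPKM in at least 1 library. A change of at least 2-fold is a rule of size, not a test, since each group had 1 library. The calculation was run on simulated data with planted changes well beyond 2-fold. That checks the arithmetic, and not calls near 2-fold or the spread between cultures. RPKM holds no counts, so no counting intervals were computed. Among 431 genes with values under 0.05 RPKM in both libraries, the most frequent ratio of MYOCD to WT was 1.15, and single-transcript genes of at least 1500 nt gave a step of 0.0669 RPKM per read and 1000 nt in MYOCD and 0.0581 RPKM in WT. Read numbers derived from these steps are approximate because the authors' gene lengths are not given. Every guidance gene past the filter was named with both values, and of the co-receptor and signalling lists those at or beyond 2-fold and the 3 most abundant. Cell type markers are given as counts and sums, with those at or beyond 2-fold. VEGFA and VEGFC were named after their values were seen. The members, lists and named genes were chosen with earlier results of these data known. The GC box, the protein-coding background and the read steps were added after the values were seen. Python 3.11.15, pandas 2.3.3, numpy 2.4.6, scipy 1.17.1 and matplotlib 3.10.9 were used.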

Additional observations from a re-analysis of the deposited data

How the results depend on the processing

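Each result was recomputed under 9 alternatives: a pseudocount of 0.1 or 1 RPKM, a filter of at least 5 RPKM in a library, a mean of at least 1 RPKM or no filter, both libraries at the same total, trimmed scaling, the steady reference genes at 0, and rows of a symbol summed. The scalings were the only alternatives that could change the sign of a member. They moved log2 changes by far less than 1, so no member at or beyond 2-fold could take the other sign. With a pseudocount of 0.1 RPKM, under which 15.2% of all genes lay at or beyond 2-fold against 11.8% as reported, 7 guidance members were higher and 5 lower, the lower ones with 2 class 3 semaphorins (SEMA3E joining SEMA3A) and 2 plexins (PLXNB3 joining PLXNA3). In that setting 2 membrane semaphorins (SEMA6C and SEMA7A) and 2 signalling partners were higher. With a pseudocount of 1 RPKM (9.11% of all genes), 3 guidance members were higher, with 1 ephrin and 0 robos, and the co-receptor list had 1 higher and 1 lower. With at least 5 RPKM (8.39% of all genes), 3 members were higher, 0 of them ephrins, and the median log2 change was 0.032. The co-receptor list then had 1 higher and 1 lower. Without a filter (4.74% of all genes) the median over the 70 members was -0.0024 and 2 signalling partners were lower. With the steady reference genes at 0 (11.9% of all genes), which moved the median of all genes to 0.085, 1 membrane semaphorin and 2 signalling partners were higher. The medians of the ephrins (-0.62), the membrane semaphorins (-0.31) and the plexins (0.27) took the other sign with at least 5 RPKM, that of the membrane semaphorins also did so with a mean of at least 1 RPKM (-0.22) and was 0 without a filter, and that of the slits (-0.12) did so without a filter. The cause of these shifts was not tested, beyond the change in which genes were counted. No paired analysis was possible because each group had 1 library. The single libraries limit every value here, and members near 1 RPKM rest on few reads.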
